A study of Homo sapiens with 2 samples.

Results

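The miR-106a-363 cluster is a run of 6 miRNA hairpins on the X chromosome, hsa-mir-106a, hsa-mir-18b, hsa-mir-20b, hsa-mir-19b-2, hsa-mir-92a-2 and hsa-mir-363 (hsa- stands for human and is left out where no value is introduced). Its members were taken by name, as 6 of the 1038 miRNA precursors counted in small RNA bound to AGO3 or AGO2. The RNA came from HEK293 cells, a human embryonic kidney line, of the strain HEK293 T-Rex. One group of cells expressed FLAG:AGO3 and the other FLAG:AGO2, each protein was pulled down through its tag, and each gave 1 library. The promoter that drove the tagged proteins, and whether a line was 1 clone, are not stated in the labels used here. The 3′ adapter differed between the libraries, so protein and adapter cannot be told apart, and no difference has a replicate check or a p-value.

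Argonaute proteins hold mature miRNAs and carry them to target RNAs, and the bases next to the 5′ end of the miRNA, its seed, choose the targets. The cluster is a paralogue of the miR-17-92 cluster on chromosome 13 and of the miR-106b-25 cluster on chromosome 7, and all of them arose by duplication. One transcript carries the hairpins of such a cluster; Drosha cuts out each hairpin, Dicer removes its loop, and one arm is mostly kept. The chromosome 13 cluster is known as an oncogene that holds back cell cycle inhibitors and the death factor BIM, whereas mice that lack the X-chromosome cluster alone develop without an obvious defect.

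The mature arms below show how the hairpins divide by seed and how closely they match their paralogues. They are RefSeq sequences (build GRCh38.p14), in 5′ to 3′ direction, with the seed (bases 2 to 8) in capitals. Arms of the 6 cluster members come first in each seed group. The members' arms in that build lie on the minus strand of chrX:134169382-134170266.
hsa-miR-106a-5p: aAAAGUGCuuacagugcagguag
hsa-miR-20b-5p: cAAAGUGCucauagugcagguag
hsa-miR-17-5p: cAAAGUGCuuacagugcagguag
hsa-miR-20a-5p: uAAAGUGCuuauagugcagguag
hsa-miR-93-5p: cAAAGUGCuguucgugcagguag
hsa-miR-106b-5p: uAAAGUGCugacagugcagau
hsa-miR-18b-5p: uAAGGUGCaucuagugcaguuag
hsa-miR-18a-5p: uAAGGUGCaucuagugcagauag
hsa-miR-19b-3p: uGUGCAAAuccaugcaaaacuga
hsa-miR-19a-3p: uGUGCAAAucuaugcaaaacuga
hsa-miR-92a-3p: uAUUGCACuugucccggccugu
hsa-miR-363-3p: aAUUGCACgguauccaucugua
hsa-miR-25-3p: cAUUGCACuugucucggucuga

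Counting positions from 1 at the 5′ end, and writing the base of the cluster member first, miR-106a-5p differed from miR-17-5p by A1C alone. For miR-18b-5p against miR-18a-5p the difference was U20A, and for miR-20b-5p against miR-20a-5p it was C1U and C10U. Against miR-106b-5p, over the 21 bases of the shorter one, miR-106a-5p had A1U, U10G and G20A, and against miR-93-5p, miR-20b-5p had C10G, A11U and A13C. The arm miR-363-3p shared its seed with miR-92a-3p but matched it at 10 of 22 bases, and it matched miR-25-3p at 9 of 22. The hairpins mir-19b-2 and mir-92a-2 give the same 3p arm as mir-19b-1 and mir-92a-1 on chromosome 13, so a read of that arm cannot be given to either copy by its sequence. Along whole hairpins, mir-18b was 88.7% identical to mir-18a, mir-106a was 69.0% identical to mir-17, and mir-363 was 50.6% identical to mir-25.

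Of 4667236 AGO3 reads, 3055417 (65.5%) were counted on precursors, and of 6674064 AGO2 reads, 3485257 (52.2%). A count joins both arms of a hairpin, and a level is given as the share of all precursor counts of its library. Mature miRNAs are read whole, so no length correction applies. Brackets hold exact 95% intervals by the Clopper-Pearson method. They measure counting error only, since PCR copies of one molecule cannot be recognised among these reads. Each library came from a whole culture, so that fewer cells with a miRNA and less of it per cell cannot be told apart. Of 27 precursors known as markers of other cell types, 20 had counts under the listed names; they summed to 5.003% in AGO3 and 3.17% in AGO2, and without the endothelial mir-126 to 0.314% in AGO3 and 0.286% in AGO2. No entry was found under the names mir-223, mir-155, mir-206, mir-302d, mir-372 and mir-373, and mir-371 is split in the tables into mir-371a and mir-371b, which had at most 3 counts each per library and are outside these sums. The part of other cell types in the differences described here was not tested.

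The first question was how much of the cluster each protein held. The 6 precursors summed to 47580 counts in AGO3, 1.56% (1.54 to 1.57) of the library, and to 56712 counts in AGO2, 1.63% (1.61 to 1.64). The log2 ratio of these shares, AGO3 over AGO2, was −0.06 (−0.08 to −0.05), and 0.26 when the libraries were scaled to all their reads, a scaling that raises every ratio by 0.33. That sum was mostly mir-92a-2, which made up 67.4% of it in AGO3 and 65.9% in AGO2. With mir-19b-2 and mir-92a-2 left out, the other 4 precursors summed to 0.412% (0.405 to 0.419) of AGO3 and 0.286% (0.281 to 0.292) of AGO2, a log2 ratio of 0.52 (0.49 to 0.56). With mir-92a-2 alone left out, the log2 ratio was −0.13 (−0.16 to −0.10), so the negative sign did not rest on mir-92a-2. The direction of the cluster as a whole thus changed with the scaling. It also changed when both members whose main arms also come from chromosome 13 were left out.

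Of the 2 cluster members with the miR-17 seed, a family whose targets include the cell cycle inhibitor p21, hsa-mir-106a was the more abundant. It had 9429 counts in AGO3, 0.309% (0.302 to 0.315), and 8402 counts in AGO2, 0.241% (0.236 to 0.246). Its log2 ratio was 0.36 (0.31 to 0.40), a difference of 1.28-fold. The other member with this seed, hsa-mir-20b, was the least abundant of the 6, with 261 counts in AGO3, 0.00854% (0.00754 to 0.00964), and 160 counts in AGO2, 0.00459% (0.00391 to 0.00536). It was 1.86-fold higher in AGO3, at a log2 ratio of 0.89 (0.61 to 1.19).

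The member of the miR-18 seed family, hsa-mir-18b, was nearly as scarce. It made up 0.0114% (0.0103 to 0.0127) of AGO3 and 0.00634% (0.00553 to 0.00723) of AGO2 counts, a log2 ratio of 0.85 (0.60 to 1.10). Its counting interval and that of mir-20b overlapped almost wholly, and both reached past 2-fold. Neither was placed by its counts on one side of 2-fold.

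The miR-19 family, known for its part in the growth of B-cell lymphoma in mice, was represented by hsa-mir-19b-2. It had 2912 counts in AGO3, 0.0953% (0.0919 to 0.0988), and 9359 counts in AGO2, 0.269% (0.263 to 0.274). Its log2 ratio of −1.49 (−1.55 to −1.43) was the lowest of the cluster and the 8th lowest of all 411 precursors that reached 100 counts when the libraries were added. As a part of the cluster's counts, mir-19b-2 made up 6.12% in AGO3 and 16.5% in AGO2. Its main arm also comes from mir-19b-1 on chromosome 13, whose log2 ratio was −1.96. The ratio of mir-19b-2 therefore cannot be read as that of the X-chromosome copy alone.

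The miR-92 seed group held the cluster's most abundant precursor and a far scarcer one. The count of hsa-mir-92a-2 was 32079 in AGO3, 1.05% (1.04 to 1.06), and 37370 in AGO2, 1.07% (1.06 to 1.08), a log2 ratio of −0.03 (−0.05 to −0.01), or 0.30 when scaled to all reads. The 3′-most hairpin, hsa-mir-363, had 2550 counts in AGO3, 0.0835% (0.0803 to 0.0868), and 1200 counts in AGO2, 0.0344% (0.0325 to 0.0364). It was 2.42-fold higher in AGO3, at a log2 ratio of 1.28 (1.18 to 1.38), the highest of the cluster and the 47th highest of the 411. The ratio of mir-92a-2 cannot be read as that of the X-chromosome copy alone, since its main arm also comes from chromosome 13.

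**Figure D1:**
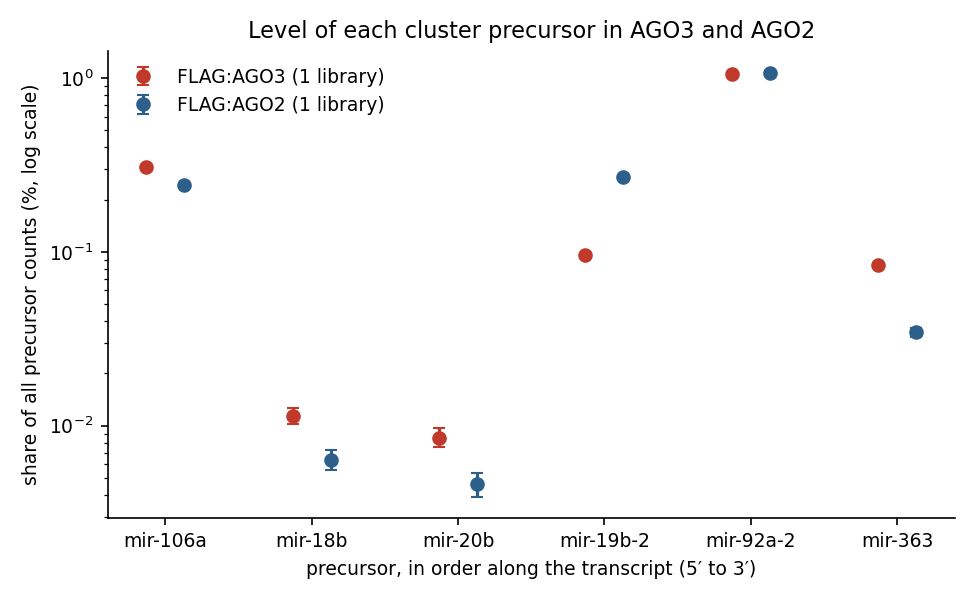
Share of all precursor counts (%, log axis) of each cluster precursor in the FLAG:AGO3 library and in the FLAG:AGO2 library, in order along the transcript; bars are exact 95% counting intervals and each point is 1 library. In both libraries mir-92a-2 is highest and mir-20b lowest, and mir-19b-2 stands at 0.0953% in AGO3 and 0.269% in AGO2.

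In AGO3 the order of levels was mir-92a-2, mir-106a, mir-19b-2, mir-363, mir-18b, mir-20b, and in AGO2 mir-19b-2 stood above mir-106a while the rest kept that order. Counting intervals of neighbours in these orders did not overlap, but with 1 library per protein the spread between libraries is unknown. By rank among the 947 precursors counted in AGO3 and the 966 counted in AGO2, mir-92a-2 was number 27 in AGO3 and number 22 in AGO2, while mir-20b was number 258 in AGO3 and number 299 in AGO2. Of the members with a main arm of their own, mir-106a ranked highest, at number 68 in AGO3 and number 78 in AGO2.

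Of the 6 members, 2 were at least 2-fold apart, mir-363 towards AGO3 and mir-19b-2 towards AGO2, against a background of 24.6% of the 411 precursors. That is 1 member towards AGO3, where 15.8% of the 411 lay, and 1 towards AGO2, where 8.76% lay. The main arm of the latter, mir-19b-2, also comes from chromosome 13. Higher in AGO3 by any size were 4 of 6 members, against 53.3% of the 411, or 5 of 6 members against 66.7% when scaled to all reads. The median log2 ratio was 0.60 over the 6 members and 0.08 over the 411. With so few members these shares do not set the cluster apart from the background. With that scaling, mir-18b and mir-20b also passed 2-fold, so that 4 of 6 members were apart, and the background was then 29.9%.

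**Figure D2:**
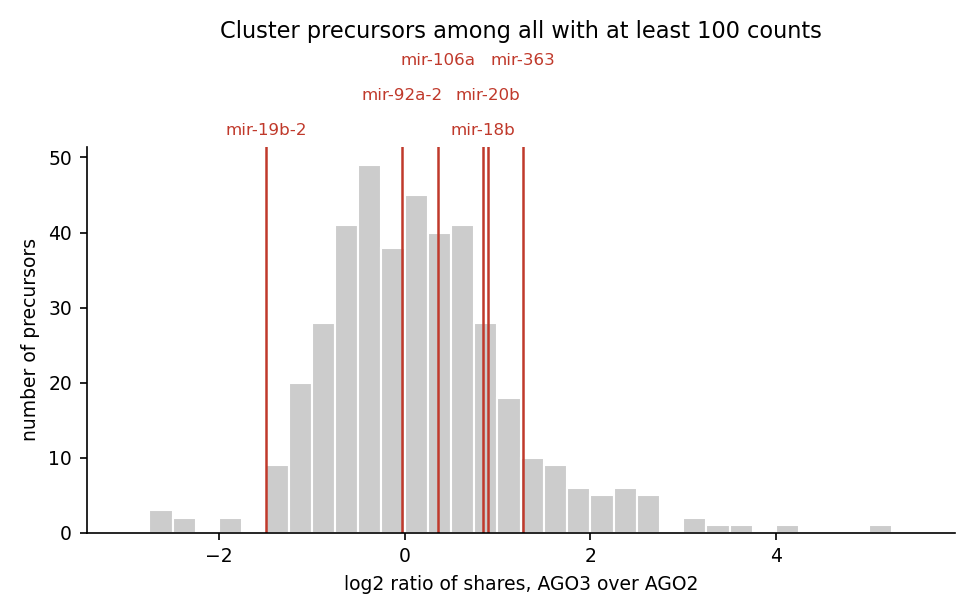
Histogram of the log2 ratio of shares, AGO3 over AGO2 (horizontal axis), for the 411 precursors with at least 100 counts (vertical axis, number of precursors), with a line at each cluster precursor. The lines run from −1.49 for mir-19b-2 to 1.28 for mir-363, and the median of all precursors is 0.08.

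The next comparison set each member against its paralogue on chromosome 13. The precursors mir-18b and mir-20b stood at positive log2 ratios where mir-18a and mir-20a were negative. For mir-18b the ratio was 0.85 and for mir-18a −0.45, a difference of 1.30 (Wald 95% interval of the log odds, 1.06 to 1.54). For mir-20b it was 0.89 and for mir-20a −0.50, a difference of 1.40 (1.11 to 1.68). These were the widest gaps among the 6 pairs with chromosome 13, and these paralogues differ by 1 and 2 bases in the mature arm.

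The pair mir-106a and mir-17 went the other way, although their mature arms also differ by 1 base. Here mir-106a was at 0.36 and mir-17 at 0.76, a difference of −0.40 (−0.45 to −0.36). The copies with the same 3p arm differed too: mir-19b-2 was at −1.49 and mir-19b-1 at −1.96, a difference of 0.47 (0.39 to 0.55), and mir-92a-2 was at −0.03 and mir-92a-1 at 0.36, a difference of −0.39 (−0.42 to −0.36). For mir-363, set against mir-92a-1 as the chromosome 13 precursor with its seed, the difference was 0.92 (0.82 to 1.02). Over the 6 pairs, the member had the higher ratio in 4 and the lower in 2. All 6 intervals lay clear of 0, and the spread between libraries is not known. For the copies with the same 3p arm, the intervals leave out how shared reads were divided between copies. That division is not stated, so these differences cannot be read as differences between the hairpins.

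Against chromosome 7 the member had the higher ratio in 3 of 3 pairs. The members paired, mir-106a, mir-20b and mir-363, were all higher in AGO3. Neither mir-19b-2 nor mir-92a-2, the members lower in AGO3, was paired with the chromosome 7 cluster. All of that cluster's precursors were lower in AGO3, with mir-106b at −0.44, mir-93 at −0.22 (0.11 when scaled to all reads) and mir-25 at −0.45. The difference was 0.79 (0.75 to 0.83) for mir-106a minus mir-106b, 1.12 (0.83 to 1.40) for mir-20b minus mir-93 and 1.73 (1.62 to 1.83) for mir-363 minus mir-25. The last was the widest gap of all 9 pairs compared. A difference between 2 precursors within the same libraries does not change with the scaling of the libraries.

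**Figure D3:**
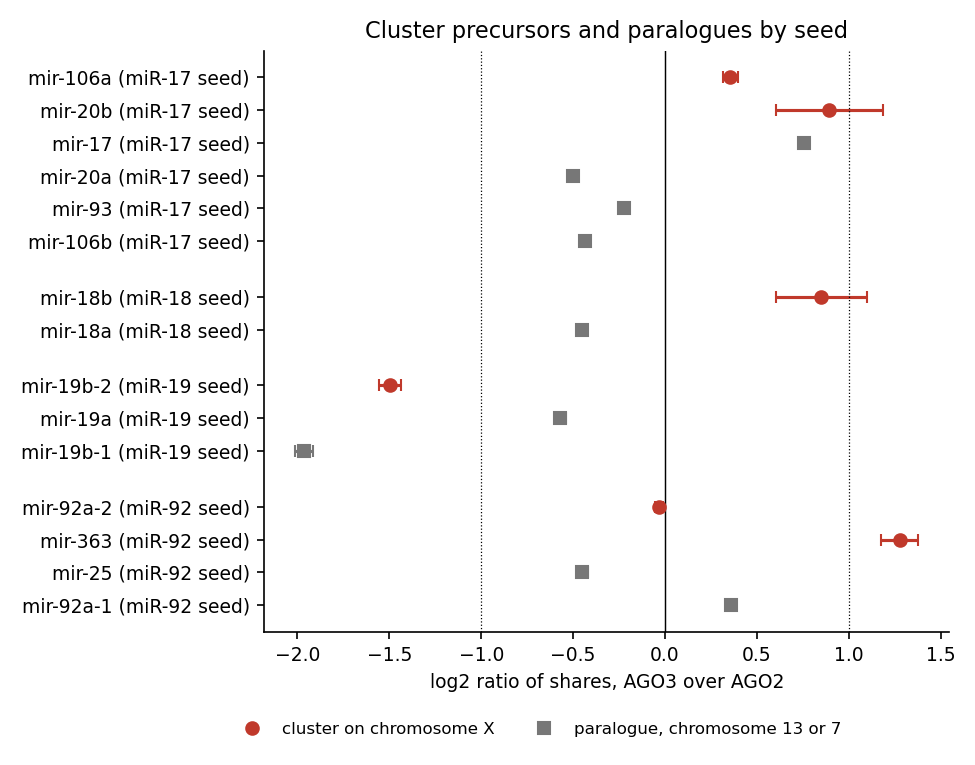
Log2 ratio of shares, AGO3 over AGO2 (horizontal axis), of the 6 cluster precursors (circles) and their 9 paralogues on chromosomes 13 and 7 (squares), grouped by seed; bars are exact 95% counting intervals and dotted lines mark 2-fold. Circles of mir-20b, mir-18b and mir-363 lie at 0.89, 0.85 and 1.28, while squares of mir-20a, mir-18a and mir-25 lie at −0.50, −0.45 and −0.45.

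The cluster's part in each seed family also differed between the proteins. Members of the cluster gave 2.07% (2.03 to 2.11) of the miR-17 seed counts in AGO3 and 1.32% (1.29 to 1.35) in AGO2, nearly all of it from mir-106a. Of the miR-18 seed counts mir-18b gave 0.362% (0.325 to 0.402) in AGO3 and 0.147% (0.129 to 0.168) in AGO2. In both families the cluster was a small source beside its paralogues.

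The deposited share was far larger for the seeds whose arms are shared between copies. Of the miR-19 seed counts mir-19b-2 took 13.8% (13.4 to 14.3) in AGO3 and 17.9% (17.6 to 18.2) in AGO2. Of the counts of mir-92a-2, mir-363 and their listed paralogues mir-92a-1 and mir-25, the first 2 took 34.5% (34.2 to 34.8) in AGO3 and 36.5% (36.2 to 36.8) in AGO2. When mir-32, mir-92b and mir-367, whose RefSeq arms have the same seed, were added, they took 27.2% (27.0 to 27.4) in AGO3 and 23.1% (22.9 to 23.3) in AGO2, so that the direction turned with the choice of family. Of this wider family mir-363 alone gave 2.003% (1.93 to 2.08) in AGO3 and 0.720% (0.680 to 0.761) in AGO2. Within the copies alone, mir-19b-2 took 39.6% of all mir-19b counts in AGO3 and 32.1% in AGO2, and mir-92a-2 took 37.9% of all mir-92a counts in AGO3 and 44.4% in AGO2. The labels and files do not state how reads that match both copies were divided. With copies added, mir-19b as a whole was at −1.80 (−1.83 to −1.76) and mir-92a at 0.20 (0.19 to 0.21), so that mir-92a changed sign.

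The pooled list of read stacks gave a second view of the locus. A stack is a run of overlapping reads on the genome with its count. The list joins libraries, does not separate AGO3 from AGO2, and holds 68649476 reads, 6.05 times those of both libraries above. In build hg19, 8 stacks named a cluster member, all on the minus strand within chrX:133303410-133304300, a span of 891 bases. They held 169760 reads, and no other stack of that strand lay inside the span. From the 5′ end of the transcript they came in the order mir-106a, mir-18b, mir-20b, mir-19b-2, mir-92a-2, mir-363, from mir-106a to mir-363 as in the cluster's name. The annotation in the list puts each stack in the exon of the miRNA's own gene (MIR106A, MIR18B, MIR20B, MIR19B2, MIR92A2, MIR363).

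In these stacks mir-106a dominated the cluster, with 124163 reads or 73.1% of the total. Next came mir-363 with 19163 reads (11.3%), mir-20b with 16703 (9.84%) and mir-18b with 9083 (5.35%). The copies mir-19b-2 with 450 reads (0.265%) and mir-92a-2 with 198 (0.117%) came last. The most abundant member in the tables was thus the least abundant in the stacks, where its only stack does not cover its 3p arm.

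The precursors mir-106a and mir-20b had 2 stacks each, and in both the one nearer the 5′ end of the transcript held nearly all reads. For mir-106a it was chrX:133304269-133304300 with 123105 reads (99.1%), against 1058 reads at chrX:133304237-133304262. For mir-20b it was chrX:133303876-133303925 with 16135 reads (96.6%), against 568 reads at chrX:133303841-133303867. The 5p arm, which lies on that side of a hairpin, is the arm with the miR-17 seed printed above. The stacks of mir-18b (chrX:133304071-133304143, 73 bases) and mir-363 (chrX:133303410-133303496, 87 bases) were longer than their whole hairpins of 71 and 75 bases, so that arms were not separated there. Those of mir-19b-2 (chrX:133303755-133303778, 24 bases) and mir-92a-2 (chrX:133303611-133303654, 44 bases) were shorter. By their distance from the mir-18b stack, they lie over the 5p arms of these hairpins. They do not cover the 3p arms shared with chromosome 13.

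**Figure D4:**
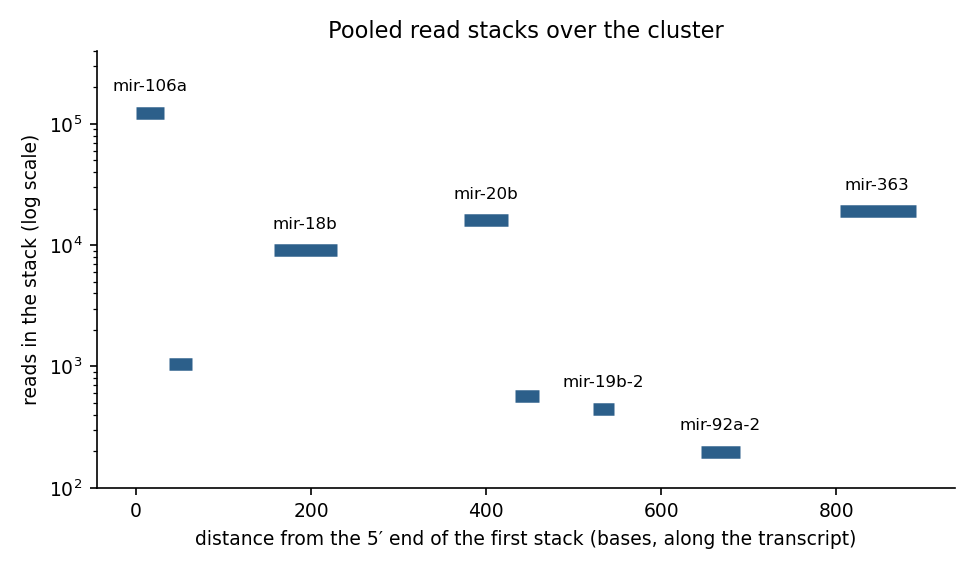
Reads in each pooled stack that names a cluster precursor (vertical axis, log scale) against distance along the transcript from the 5′ end of the first stack (bases); each bar spans the length of 1 stack. The first stack of mir-106a holds 123105 reads, and the stacks of mir-19b-2 and mir-92a-2 hold 450 and 198.

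The RefSeq hairpins of mir-106a, mir-18b and mir-363 are printed next, and the capitals mark the mature arms that RefSeq lists. They are shown beside the 5′ stack of mir-106a and the unbroken stacks of mir-18b and mir-363.
mir-106a hairpin: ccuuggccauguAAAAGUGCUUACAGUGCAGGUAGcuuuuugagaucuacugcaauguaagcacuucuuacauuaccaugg
mir-18b hairpin: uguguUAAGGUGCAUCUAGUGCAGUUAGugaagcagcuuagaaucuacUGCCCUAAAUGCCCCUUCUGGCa
mir-363 hairpin: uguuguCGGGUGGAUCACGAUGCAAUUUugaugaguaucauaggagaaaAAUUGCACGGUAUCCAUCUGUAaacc

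Edits, that is, differences from the reference counted in a stack, were compared per read. The 5′ stack of mir-20b had 0.273 edits per read, whereas the other 7 stacks of the cluster had between 0.121 and 0.172. Among 690 stacks over miRNA precursors with at least 100 reads the median was 0.150 edits per read, and 11 stacks had more than the 5′ stack of mir-20b. The arm miR-20b-5p differs from miR-20a-5p at positions 1 and 10. The 5p arms of mir-106a and mir-18b differ from those of mir-17 and mir-18a by 1 base. Yet the 5′ stack of mir-106a had 0.123 edits per read and the stack of mir-18b 0.121. A link of the edits to these bases was not tested. The list does not give which bases were edited.

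Stack reads were then set against table counts, AGO3 and AGO2 together, for the 326 precursors with at least 100 counts and a stack of their own. The median was 6.32 stack reads per count. The values of mir-106a (6.96) and mir-363 (5.11) lay near it, those of mir-18b (15.9) and mir-20b (39.7) above it, and those of mir-19b-2 (0.0367) and mir-92a-2 (0.00285) far below. Of the 326, mir-92a-2 had the second lowest value and mir-19b-2 the 14th lowest, and mir-20b was exceeded by 27. The copies that share an arm with chromosome 13 were thus the members on which tables and stacks differed most. Their stacks lie over the 5p arms alone, whereas their counts join both arms.

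**Figure D5:**
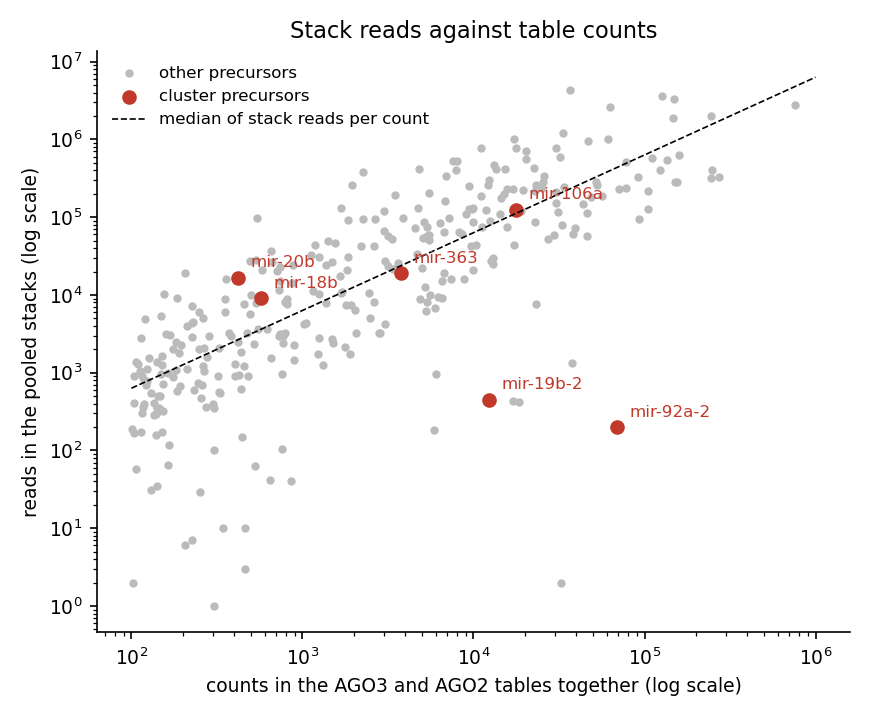
Reads in the pooled stacks (vertical axis, log scale) against counts in the AGO3 and AGO2 tables together (horizontal axis, log scale) for 326 precursors; the dashed line is the median of 6.32 stack reads per count. The points of mir-106a and mir-363 lie close to the line, and those of mir-19b-2 and mir-92a-2 lie far below it.

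For mir-19b and mir-92a, the stacks of the X-chromosome copies held 648 reads, and the single stack over mir-19b-1 and mir-92a-1 on chromosome 13 held 2462278. The X-chromosome copies thus had 0.0263% of these stack reads, whereas in the tables they had 38.0% of the counts of all 4 precursors in AGO3 and 41.3% in AGO2. The X-chromosome stacks lie over the 5p arms alone, so no stack there covers the shared 3p arms. The chromosome 13 stack runs across both hairpins, and table counts join both arms. Where reads of the shared 3p arms were placed can set either figure, and neither shows how much miRNA each copy made.

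For members with an arm of their own, tables and stacks can be set side by side more directly. Still, the 5p arms of mir-106a, mir-18b and mir-20b differ from those of their chromosome 13 paralogues by only 1 or 2 bases. How reads that match several precursors were handled is not stated. In the stacks mir-18a had 218 times the reads of mir-18b, and 275 times its counts in the AGO3 table and 678 times in the AGO2 table. For mir-20a over mir-20b the factor was 197 in the stacks, 216 in AGO3 and 571 in AGO2. For mir-17 over mir-106a it was 29.3 in the stacks, 8.001 in AGO3 and 6.05 in AGO2. The chromosome 13 paralogue was the more abundant in every one of these, by factors that differed between the sources.

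The cluster's neighbours on the X chromosome, the hairpins mir-424, mir-503, mir-542, mir-450a-1, mir-450a-2 and mir-450b, were described for comparison. Their log2 ratios lay between −0.54 and 0.29, narrower than the cluster's −1.49 to 1.28, with a median of −0.27. The most abundant, mir-424, had 43276 counts in AGO3 and 61385 in AGO2, at −0.31. None of the 6 was at least 2-fold apart under any of the 4 scalings. Of the 411 precursors, 24.6% were apart in the main scaling and 29.9% with all reads. With so few neighbours this does not set them apart from the background. Signs were less stable, as mir-424 and mir-503 turned positive with all reads and mir-542 negative with median of ratios and TMM. The ratios of mir-503, mir-542 and mir-450b were −0.22, 0.08 and −0.35, and those of the copies mir-450a-1 and mir-450a-2 were −0.54 and 0.29. Of 23 other X-chromosome precursors listed, 19 had at least 100 counts, with a median of −0.15. Of these 19, 5 were at least 2-fold apart, near the 24.6% of the 411. The 3 precursors with at least 1000 counts whose ratio was nearest to that of the summed cluster were mir-99a, mir-10a and mir-1306, at −0.06 each, a likeness that rests on 2 libraries.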

How the data were processed

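Small RNA from 1 FLAG:AGO3 and 1 FLAG:AGO2 immunoprecipitation was analysed. The deposited tables hold raw counts per miRNA precursor, with read totals per the file headers. Counts sum to the mapped reads, and both arms are joined. The deposited stack list gives the count of reads per stack and, per the file headers and fields, edits and an entropy score; the score was not used here. Per the submitters' processing notes, which give no roles, Bowtie2 2.1.0 and build hg19 were used. The labels and files do not state the miRBase release, how the 5′ adapter's random bases and reads that match several precursors were handled, or which libraries the stacks pool.

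From the counts, shares of all precursor counts and their log2 ratio (pseudocount 0.5, scaled to library size) were computed. Shares and ratios have exact 95% intervals (Clopper-Pearson), and those of differences between precursors are Wald intervals of the log odds. A count of 0 allows up to 3 counts. No test was made with 1 library per protein, and ratios of at least 2-fold, at a minimum of 100 counts over both libraries, were counted as apart. The computation of ratios and intervals was checked on simulated counts with known changes. There the shift in shares that the changes themselves caused was allowed for, a step not applied to the real ratios. Stacks were matched by the exact precursor name on the sense strand. RefSeq sequences matched 6 of 6 members; hairpins were aligned globally with Biopython 1.88 (match 1, mismatch −1, gap opening −2, extension −1), and identity is the share of aligned columns. All members, their paralogues and the neighbours listed were named. Members and lists were chosen with earlier results of these data known. Alternatives covered scaling (median of ratios; TMM from edgeR 4.0.16; all reads), pseudocounts, count minimums, the fold threshold and copies added. Software was R 4.3.3 and Python 3.11.15 with scipy 1.17.1, pandas 2.3.3, numpy 2.4.6 and matplotlib 3.10.9.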

Additional observations from a re-analysis of the deposited data

Results flagged for a closer look

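A stack on the strand opposite to mir-106a, at chrX:133304243-133304262 in build hg19, held 10 reads of the pooled list, and this strand entered no comparison. Its mapping quality label was UNIQ10_K1, whereas all 8 stacks of the cluster had UNIQ40_K0. The opposite-strand stack had 1 edit per read on average, and no other cluster member had a stack on its opposite strand.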

How the results depend on the processing

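No paired analysis was possible because each protein has 1 library. Other scalings move every log2 ratio by the same amount, −0.19 for median of ratios, −0.16 for TMM and 0.33 for all reads of the library. With median of ratios the ratio was 0.17 for mir-106a, −1.68 for mir-19b-2, −0.22 for mir-92a-2, 1.09 for mir-363 and −0.25 for the summed cluster. With TMM it was 0.20, −1.65, −0.19, 1.12 and −0.22 for the same items. With all reads it was 0.68, −1.17, 0.30, 1.60 and 0.26 for them, 1.17 for mir-18b and 1.22 for mir-20b, and 4 members and 29.9% of all precursors were at least 2-fold apart. The signs of mir-92a-2 and of the summed cluster thus depend on scaling, and the other 5 members kept theirs under these scalings. With copies added, mir-19b was at −1.80, mir-92a at 0.20 and the difference of mir-363 from mir-92a at 1.08. The summed cluster was at 0.52 without mir-19b-2 and mir-92a-2 and at −0.13 without mir-92a-2. At 1.5-fold, 4 members and 50.6% of all precursors were apart. With all precursors that have the miR-92 seed, a choice made after seeing the data, the cluster's part of that seed was 27.2% in AGO3 and 23.1% in AGO2, against 34.5% in AGO3 and 36.5% in AGO2 with the listed ones. Without the most abundant precursor of the libraries the cluster held 1.73% of AGO3 and 1.88% of AGO2 counts. Depth limits mir-20b and mir-18b most, the scarcest members. Pseudocounts moved no ratio beyond its counting interval. Choices of stacks left the cluster's stack reads at 169760. With stacks that name several precursors, the median of stack reads per count was 6.46, against 6.32.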
